A study of Mus musculus with 15 samples.

Results

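The 9 genes described here are members of the T helper 17 (Th17) lineage program, taken by symbol: Rora, Il17a, Il17f, Il22, Il23r, Ccr6, Ahr, Stat3 and Batf. They are 9 of 55421 genes counted in the series, and all 9 were found by symbol. RNA-seq libraries were made from CD4+ T cells that had been sorted from 2 organs of Rag2-/- mice, the mesenteric lymph node (mLN) and the spleen. The recipients had received naive (CD25-, CD44-, CD62L+) CD4+ T cells 6 weeks earlier, a transfer that causes colitis. The WT donors carried Prkaa1 fl/fl without a Cre transgene, and the KO donors carried CD4-Cre with Prkaa1 fl/fl, so the floxed Prkaa1 alleles were shared by both groups. Prkaa1 encodes AMPKα1, the catalytic subunit of the energy sensor AMPK present in T cells, and CD4-Cre removes it in T cells of the donor from thymic development onwards. Mice were of C57BL/6 background and 6 to 8 weeks of age. The groups were WT spleen (n = 4), KO spleen (n = 4), WT mLN (n = 3, replicates 1, 2 and 4) and KO mLN (n = 4), all from 1 experiment, so p-values measure the spread between these samples. The hosts lack T and B cells of their own but keep myeloid cells, NK cells and innate lymphoid cells, and the last of these can also express Il22, Il23r, Ccr6 and Ahr.

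Th17 cells arise when naive CD4+ T cells see TGF-β with IL-6 or IL-21, and IL-23 then maintains them. STAT3 carries the IL-6, IL-21 and IL-23 signal, BATF opens chromatin together with JUN and IRF4, and RORα belongs to the nuclear receptors that drive the cytokine genes. AHR, a sensor of small aromatic ligands, promotes IL-22. The products of the program are IL-17A and IL-17F, which recruit neutrophils, IL-22, which acts on epithelium, and CCR6, a receptor that guides cells towards CCL20 in mucosal tissue. Transfer colitis is a mixed response in which IFN-γ-producing Th1 cells and Th17 cells occur side by side.

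Stretches before the start sites of Il17a, Il17f, Il23r and Ccr6 are printed because they hold the letters AGGTCA, so their sharing them follows from this choice. The 9 members were chosen without use of these letters. In the 250 bases before the RefSeq start of each gene (RefSeq sequences on GRCm38.p6, found for 8 of the 9 genes), the half-site AGGTCA bound by ROR factors was searched on both strands. It was present in 4 of 8 genes, Il17a, Il17f, Il23r and Ccr6, and in 14.0% of 32851 windows of the same length. Also searched were TTCNNNGAA, the form bound by STAT factors (1 of 8, Ccr6, against 7.02% of windows), TGANTCA, the form bound by AP-1 dimers such as BATF with JUN (1 of 8, Il17a, against 6.75%), and GCGTG, the core bound by AHR with ARNT (1 of 8, Rora, against 28.2%). The letters of 1 search can overlap those of another, and a match describes the sequence only. Below, each run reads 5′ to 3′ on the gene's own strand and ends at the base before the start, with the searched letters in capitals.
Il17a, chr1:20730655-20730904, plus strand, AGGTCA 120 bases and TGANTCA 244 bases before the start, read on either strand: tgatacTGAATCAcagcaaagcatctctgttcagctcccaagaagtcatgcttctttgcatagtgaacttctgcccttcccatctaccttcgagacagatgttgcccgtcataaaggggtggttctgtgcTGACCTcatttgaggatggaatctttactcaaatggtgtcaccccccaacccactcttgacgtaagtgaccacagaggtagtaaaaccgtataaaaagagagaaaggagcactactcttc
Ccr6, chr17:8235793-8236042, plus strand, AGGTCA 44 bases and TTCNNNGAA 157 and 120 bases before the start: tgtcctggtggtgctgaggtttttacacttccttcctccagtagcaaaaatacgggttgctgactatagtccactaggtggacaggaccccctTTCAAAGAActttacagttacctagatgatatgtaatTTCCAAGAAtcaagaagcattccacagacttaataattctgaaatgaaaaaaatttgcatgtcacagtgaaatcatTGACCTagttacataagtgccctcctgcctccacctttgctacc
Il23r, chr6:67491856-67492105, minus strand, AGGTCA 229 and 66 bases before the start: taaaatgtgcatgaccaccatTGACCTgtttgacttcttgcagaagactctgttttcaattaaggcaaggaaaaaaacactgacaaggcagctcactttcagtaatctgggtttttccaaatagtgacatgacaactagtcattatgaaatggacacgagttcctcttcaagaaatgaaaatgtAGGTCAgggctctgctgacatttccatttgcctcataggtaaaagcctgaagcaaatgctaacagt
Il17f, chr1:20784311-20784340, minus strand, 30 bases around the AGGTCA that begins 58 bases before the start: cagtcagtaaggAGGTCAgtggaaacaggg
None of these 4 patterns was found in the windows of Il22, Stat3 or Batf. The Il17a, Ccr6 and Il23r windows hold no annotated exon in GENCODE M21, while the Il17f window overlaps an exon of another Il17f transcript.

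Each sample had between 9363940 and 11283439 reads on genes, and between 58.4% and 63.4% of the uniquely aligned reads lay on no gene. Values are given as raw counts or as counts scaled to 1000000 reads (CPM) with TMM factors. A gene is said to be called when its Benjamini-Hochberg adjusted p from edgeR was under 0.05, with adjustment across every gene in that test. Prkaa1 was lower in KO than in WT in spleen, at 20.1 ± 1.16 against 50.4 ± 3.24 CPM (mean ± SD, n = 4 and 4; log2 fold change -1.33, SE 0.08, adjusted p = 7.63e-05). In mLN it stood at 28.0 ± 5.34 against 54.3 ± 5.57 CPM (n = 4 and 3; log2 fold change -0.96, SE 0.16, adjusted p = 0.0372), and this call was lost whichever of the 7 samples was left out (adjusted p = 0.0533 to 0.161). The 8 T cell genes (Cd3e, Cd3d, Cd3g, Cd4, Trac, Trbc2, Cd5 and Lck) summed to between 6942 and 9604 CPM in every sample, while the B cell gene Ms4a1 had no read in any mLN sample. Replicate 4 of WT stood apart in both organs. It had the lowest Ifng (30.7 CPM in spleen and 32.9 in mLN, next lowest 105.8 and 82.3) and the lowest Tbx21 (102.2 and 69.4, next lowest 184.5 and 103.2), so the member estimates that moved most with it are also given without it. The labels do not say whether the WT samples numbered 4 of the 2 organs came from the same mouse.

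Per kilobase of exon, the genes of the 9 covered a wide range of levels across the 15 samples. Batf was the highest, at 116.2 ± 22.7 CPM per kb (SD over 15 samples), followed by Stat3 at 61.7 ± 6.85. Rora (27.2 ± 5.13) and Ccr6 (27.1 ± 20.96) came next, then Ahr (8.74 ± 2.34), Il22 (5.65 ± 4.28) and Il23r (2.70 ± 1.21). Il17a (0.834 ± 0.810) and Il17f (0.642 ± 0.901) were the lowest. The lowest Batf value lay above the highest Stat3 value, and the lowest Stat3 value above the highest Rora value, while the ranges of all later neighbours in this order overlapped. Rora and Ccr6 changed places between samples (Rora above Ccr6 in 10 of 15), as did Ahr and Il22 (12 of 15), Il22 and Il23r (10 of 15) and Il17a and Il17f (8 of 15). Within each sample Ccr6 lay above Ahr and Il23r above Il17a in 15 of 15.

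**Figure D1:**
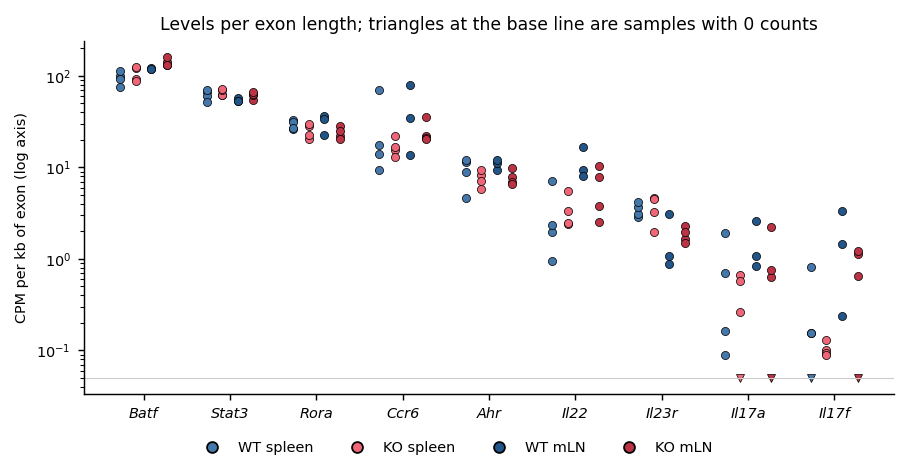
Level of each gene in each sample as CPM per kilobase of exon on a log axis, coloured by group, with samples at 0 counts drawn as triangles on the base line. The transcription factor genes Batf, Stat3 and Rora form tight columns, while Ccr6, Il22, Il17a and Il17f spread widely within groups and 2 samples each lie at 0 for Il17a and Il17f.

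Il17a (chr1:20730905-20734496, plus strand on GRCm38) encodes IL-17A and was close to the detection limit in most samples. In WT spleen it had 8, 1, 2 and 23 reads in replicates 1 to 4, and in KO spleen 3, 9, 7 and 0. In WT mLN it had 13, 10 and 30 reads in replicates 1, 2 and 4, and in KO mLN 28, 8, 9 and 0. The 2 highest values therefore came from WT mLN and KO mLN, and the 2 samples without a read were both KO replicate 4. A count of 0 allows up to 3 reads, or 0.271 CPM in that spleen sample and 0.269 CPM in that mLN sample, counting error only. As CPM, Il17a was 0.842 ± 0.987 in WT spleen, 0.440 ± 0.356 in KO spleen, 1.76 ± 1.13 in WT mLN and 1.06 ± 1.10 in KO mLN (SD, n = 4, 4, 3 and 4), and the ranges overlapped in all 4 comparisons.

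Il17f (chr1:20777146-20790617, minus strand), its neighbour on the chromosome, encodes IL-17F. It had 3, 3, 0 and 17 reads in WT spleen and 2, 3, 2 and 2 in KO spleen. Every KO spleen sample was thus at or under the floor of 3 reads. In mLN the counts were 5, 30 and 67 in WT (replicates 1, 2 and 4) and 14, 25, 25 and 0 in KO. Il17f was above the floor in 1 of 8 spleen samples and in 6 of 7 mLN samples. The 2 cytokine genes share no 75-base stretch of transcript, the length of the reads, so their reads can be told apart.

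Il22 (chr10:118204942-118210047, plus strand) encodes IL-22. It had 21, 25, 11 and 82 reads in WT spleen, 26, 42, 65 and 30 in KO spleen, 107, 91 and 182 in WT mLN and 94, 125, 42 and 31 in KO mLN. All 3 WT mLN samples lay above all 4 WT spleen samples, whereas the KO groups of the 2 organs overlapped. The values were 3.45 ± 3.09 CPM in WT spleen, 3.81 ± 1.64 in KO spleen, 12.6 ± 5.18 in WT mLN and 6.81 ± 4.05 in KO mLN. Il22 has a near-identical copy in the C57BL/6 genome, Iltifb. The longest transcripts of the 2 genes agree at 97.4% of aligned bases, and 29.9% of the 75-base stretches of Il22 (310 of 1036) also occur in Iltifb. Reads with several placements were not counted, so both genes are undercounted. Iltifb itself had 2 to 61 reads per sample, with the highest counts in WT replicate 4 of both organs (61 in spleen, 49 in mLN).

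Il23r (chr6:67422932-67491855, minus strand) encodes the specific subunit of the IL-23 receptor. Its counts were 69, 74, 97 and 107 in WT spleen, 78, 56, 121 and 123 in KO spleen, 28, 22 and 75 in WT mLN and 61, 44, 50 and 41 in KO mLN. It was lower on average in mLN than in spleen, with 8.63 ± 1.497 and 8.88 ± 3.08 CPM in WT and KO spleen and 4.16 ± 3.01 and 4.60 ± 0.902 CPM in WT and KO mLN. Ccr6 (chr17:8236043-8257141, plus strand) had 32.3, 41.2, 21.5 and 164.5 CPM in WT spleen and 36.1, 50.7, 38.5 and 29.9 in KO spleen. In mLN it had 31.8, 79.9 and 184.9 CPM in WT (replicates 1, 2 and 4) and 51.8, 83.1, 48.3 and 47.2 in KO. WT replicate 4 was the highest sample of either organ, 3.24 times the next in spleen and 2.23 times the next in mLN, and the other WT samples lay within or near the range of the KO samples.

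**Figure D2:**
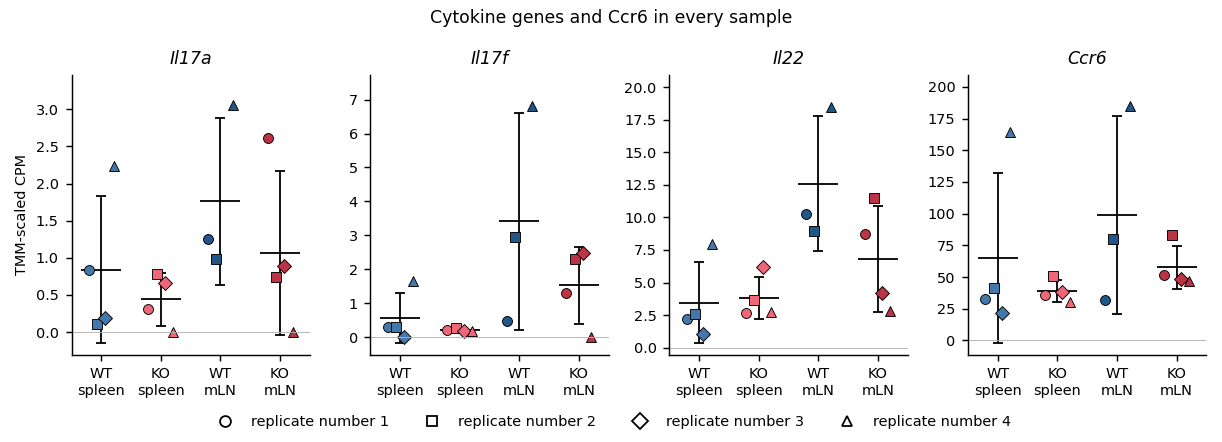
TMM-scaled CPM of the 3 cytokine genes and Ccr6 in each sample by group, with the symbol giving the replicate number, the horizontal bar the mean and the whiskers 1 SD (n = 4, 4, 3 and 4). The upward triangle, replicate 4, is the highest WT point in every panel and both organs, and the KO triangles lie at or near the bottom of their groups.

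Among the transcription factor genes, Stat3 (chr11:100885098-100939540, minus strand) was the steadiest, with 1.38-fold between its lowest and highest sample (499.3 to 687.4 CPM). Its group means were 595.6 ± 75.7 CPM in WT spleen, 635.3 ± 54.4 in KO spleen, 516.6 ± 20.9 in WT mLN and 586.4 ± 52.0 in KO mLN. Rora (chr9:68653786-69388246, plus strand) was lower on average in KO than in WT in each organ, with overlapping ranges. It had 431.5, 346.5, 406.9 and 356.4 CPM in WT spleen and 266.4, 295.7, 368.0 and 390.2 in KO spleen. In mLN it had 482.3, 293.4 and 446.8 CPM in WT and 372.6, 291.3, 265.0 and 327.9 in KO. Antisense and overlapping genes could not be separated for Rora (Gm15511), Ahr (Gm48236) and Stat3 (Stat5a), whose exons overlap a gene on the other strand, because the strand setting of the counting is not given in the sources used here.

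Ahr (chr12:35497974-35535038, minus strand) had 70.0, 54.5, 28.2 and 75.2 CPM in WT spleen and 51.0, 57.6, 43.9 and 35.4 in KO spleen. In mLN the values were 57.7, 69.6 and 74.3 CPM in WT and 48.0, 60.3, 42.2 and 40.5 in KO. Only KO replicate 2 reached into the WT range in mLN. Batf (chr12:85686669-85709087, plus strand) had 141.4, 131.4, 158.7 and 106.7 CPM in WT spleen and 128.6, 124.8, 173.2 and 177.6 in KO spleen. It had 169.4, 172.3 and 168.3 CPM in WT mLN and 187.2, 199.8, 184.0 and 227.6 in KO mLN. Batf was the only member whose WT and KO samples did not overlap in mLN, and its mLN samples lay above its spleen samples in each genotype.

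**Figure D3:**
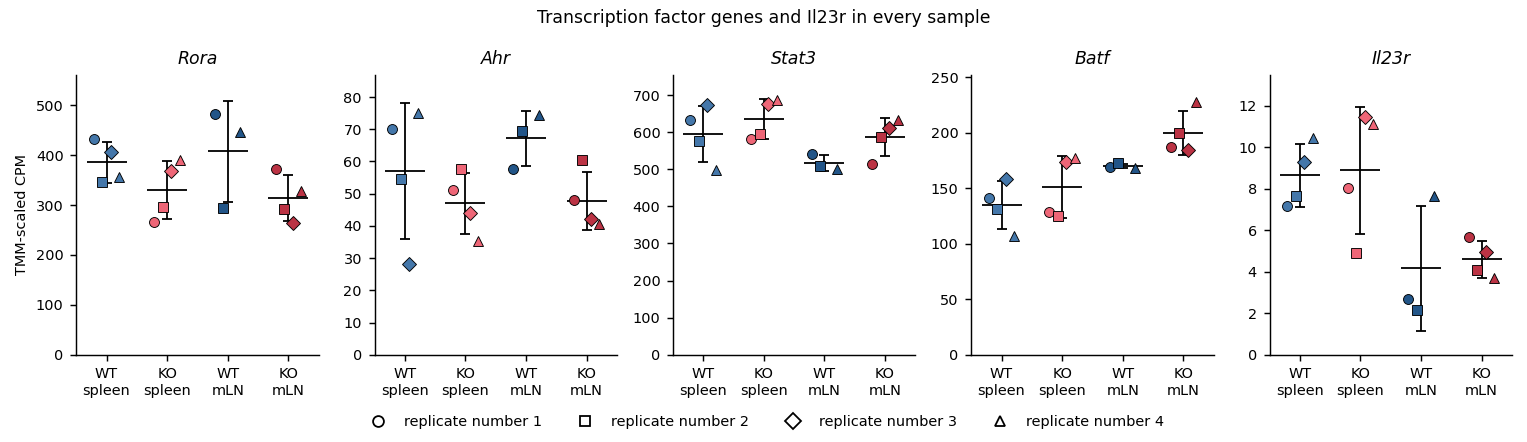
TMM-scaled CPM of Rora, Ahr, Stat3, Batf and Il23r in each sample by group, with the replicate number as symbol, the mean as a bar and 1 SD as whiskers (n = 4, 4, 3 and 4). Axes start at 0. The Batf points lie higher in mLN than in spleen and most Il23r points lower, in both genotypes, while Stat3 varies little.

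Whether loss of AMPKα1 in the transferred cells altered the program was asked first in spleen. No member was called among the 7 that passed the filter on low counts (0 higher, 0 lower), in a comparison in which 1.3% of 14254 genes were called, and none of the 7 had an unadjusted edgeR p under 0.05 (20.5% of all genes). No member's groups were free of overlap, against 12.1% of all genes. The log2 fold changes of KO over WT were 0.14 for Il22 (95% CI -1.04 to 1.32), 0.04 for Il23r (-0.53 to 0.60), -0.74 for Ccr6 (-1.94 to 0.45), -0.28 for Ahr (-0.86 to 0.30), -0.23 for Rora (-0.50 to 0.05), 0.09 for Stat3 (-0.13 to 0.31) and 0.17 for Batf (-0.16 to 0.49). Their median was 0.036 beside -0.004 over all genes tested. The intervals of Stat3, Batf and Rora are narrow, whereas that of Il22 reaches beyond 2-fold in both directions and that of Ccr6 beyond 2-fold downwards. Il17a and Il17f did not pass the filter. A two-sided exact permutation test of the mean CPM gave p = 0.571 for each, where 4 against 4 samples can reach 0.0286. Without WT replicate 4 in spleen, Ccr6 turned from -0.74 to 0.29 (adjusted p = 0.524) and Il22 moved from 0.14 to 0.98 (adjusted p = 0.239).

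In mLN, all 9 genes passed the filter and again none was called by edgeR, while 0.641% of 14359 genes were. Ahr, Batf and Rora had an unadjusted p under 0.05, 3 of 9 beside 15.7% of all genes. Ahr had a log2 fold change of -0.49 in KO (SE 0.16, adjusted p = 0.173), and 3 of 4 KO samples lay under every WT sample. Batf stood at 0.23 (SE 0.09, adjusted p = 0.265), with no overlap between the groups, a pattern that 14.2% of all genes showed in either direction and 6.76% in this one. Rora stood at -0.37 (SE 0.16, adjusted p = 0.291). The cytokine genes had negative estimates with wide intervals, -0.73 for Il17a (95% CI -2.70 to 1.24), -1.16 for Il17f (-3.24 to 0.91) and -0.88 for Il22 (-1.86 to 0.10), and so had Ccr6 (-0.78, -1.75 to 0.19). Il23r stood at 0.15 (-0.82 to 1.11) and Stat3 at 0.18 (-0.01 to 0.37). In all, 6 of 9 members had a negative log2 fold change, and the median was -0.492 beside -0.004 over all genes. Without WT replicate 4, Il17a stood at -0.08 (adjusted p = 0.988), Il17f at -0.18 (adjusted p = 0.973) and Il22 at -0.50 (adjusted p = 0.789), all closer to 0 than with it. Likewise Ccr6 stood at 0.04 (adjusted p = 0.982), Il23r at 0.91 (adjusted p = 0.458) and Ahr at -0.42 (adjusted p = 0.476).

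Cells from the node were then compared with cells from the spleen within WT. Il22 was the only member called, higher in mLN (log2 fold change 1.85, SE 0.56, adjusted p = 0.0448), beside 20.5% of 14515 genes called in either direction and 9.7% called higher. Il22 and Batf were the members whose organs did not overlap, both higher in mLN, as 15.6% of all genes were. Il17f (2.54, SE 0.99, adjusted p = 0.0970), Batf (0.33, SE 0.12, adjusted p = 0.0868) and Il23r (-1.06, SE 0.41, adjusted p = 0.0962) missed the threshold. The estimates for Il17a, Ccr6, Ahr, Rora and Stat3 were 1.03, 0.60, 0.23, 0.07 and -0.22, with adjusted p between 0.185 and 0.796. WT samples of the same number deviated together, and with the replicate number as a block 4 members passed. These were Il22 (1.68, SE 0.26, adjusted p = 0.00133), Il17f (2.11, SE 0.52, adjusted p = 0.0136) and Batf (0.43, SE 0.09, adjusted p = 0.00605), which were higher in mLN, and Il23r (-1.16, SE 0.30, adjusted p = 0.0157), which was lower.

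The Il22 call in WT was narrow in the fit without the block. It was kept without spleen replicate 4 (2.69, adjusted p = 0.00326) and lost without any other of the 7 samples, with log2 fold changes from 1.46 without mLN replicate 4 to 2.04 without mLN replicate 2 (adjusted p = 0.0639 to 0.144). With the reads of Il22 and Iltifb added together it stood at 1.49 (SE 0.65, adjusted p = 0.133). Without WT replicate 4 in both organs, 2 members were called, Il22 (2.29, SE 0.36, adjusted p = 0.00799) and Il23r (-1.74, SE 0.27, adjusted p = 0.00799). Il23r was also called without mLN replicate 4 alone (-1.84, adjusted p = 0.00513), Il17f without mLN replicate 1 (3.06, adjusted p = 0.0476) and Batf without spleen replicate 3 (0.42, adjusted p = 0.0348). Without mLN replicate 4, Il17a stood at 0.385 (adjusted p = 0.816) in place of 1.03 and Il17f at 1.55 (adjusted p = 0.357) in place of 2.54. Ccr6 turned to -0.23 without mLN replicate 4 (adjusted p = 0.875) and stood at 1.64 without spleen replicate 4 (adjusted p = 0.0654).

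The same comparison within KO called Il23r, lower in mLN (log2 fold change -0.97, SE 0.28, adjusted p = 0.0260), and Batf, higher in mLN (0.38, SE 0.12, adjusted p = 0.0381), beside 25.3% of 14240 genes called in either direction, 13.9% lower and 11.4% higher. Batf was also the only one of the 7 members tested whose organs did not overlap, as 13.2% of all genes did with mLN higher. The Il23r call was lost without KO spleen replicate 3 or 4 or KO mLN replicate 2 or 4 (-0.82 to -0.91, adjusted p = 0.0575 to 0.0841). The Batf call was lost without KO spleen replicate 1 or 2 or KO mLN replicate 2 or 4 (0.30 to 0.39, adjusted p = 0.0733 to 0.111). Ccr6 (0.55, SE 0.20, adjusted p = 0.0676) and Il22 (0.82, SE 0.44, adjusted p = 0.199) were not called, although Ccr6 was called without KO spleen replicate 2 (0.70, adjusted p = 0.0344) or without KO mLN replicate 4 (0.64, adjusted p = 0.0487), and Rora, Ahr and Stat3 stood at -0.09, 0.00 and -0.14. For Il17a and Il17f, which did not pass the filter, the means were 0.440 CPM in spleen and 1.06 in mLN, and 0.210 and 1.52 CPM, with two-sided exact permutation p = 0.400 and 0.143 (smallest possible 0.0286). In all, Il23r and Batf had the same direction and similar estimates in WT and KO, from groups that share no sample.

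**Figure D4:**
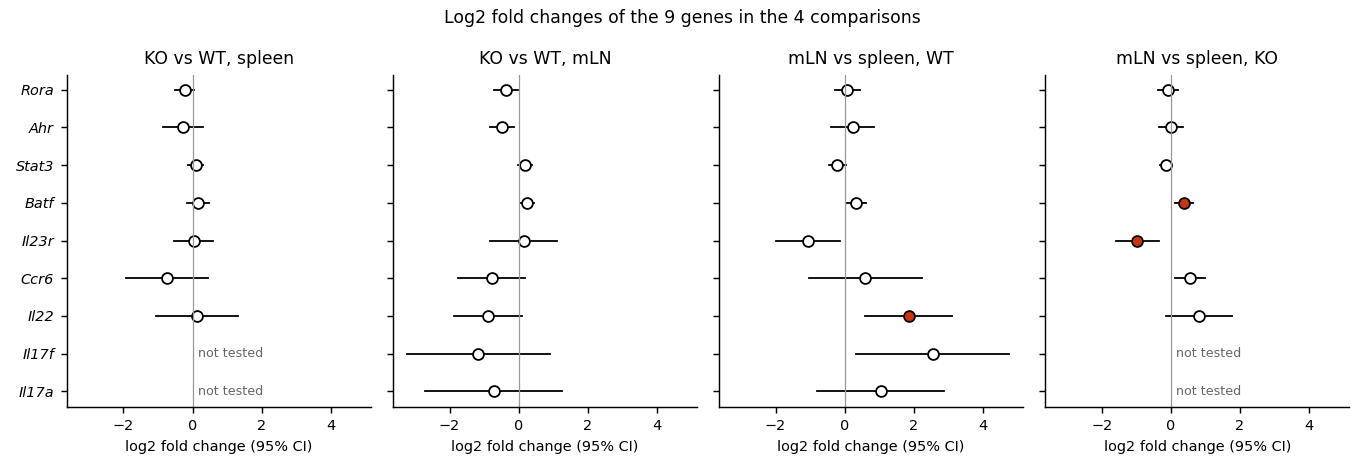
Log2 fold change of each gene with its 95% confidence interval in the 4 comparisons, from edgeR, with filled points called at an adjusted p under 0.05 and genes under the count filter marked as not tested. Il22 in WT and Il23r and Batf in KO are the 3 filled points, all between mLN and spleen.

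Whether the genotype effect differed between the organs was tested as an interaction over all 15 samples. No gene of 15438 was called by edgeR (0%), with 652 genes (4.22%) at an unadjusted p under 0.05, none of them a member, and 4 genes called by DESeq2. The interaction for Il22, whose organ difference was called in WT and not in KO, was -1.02 (SE 0.77, adjusted p = 0.9998), so a difference between the genotypes was not shown. Comparisons that use the same group share its samples, so their estimates for a gene are not independent.

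The other genes of the pathway were described from lists. Of 11 receptor and kinase genes of the cytokines that induce Th17 cells, none was called between genotypes in either organ. Between organs 5 were lower in WT mLN, where 20.5% of all genes were called in either direction, 9.7% higher and the rest lower. In KO mLN 3 were lower, beside 13.9% of all genes. None was higher in either genotype, beside 9.7% of all genes in WT and 11.4% in KO. Tyk2, a kinase of the IL-12 and IL-23 receptors, was lower in mLN in both genotypes (log2 fold change -1.11, SE 0.15, adjusted p = 0.00130 in WT; -1.17, SE 0.12, adjusted p = 5.52e-05 in KO). Il12rb1, the subunit that IL-23R pairs with, followed it (-0.98, adjusted p = 0.0205 in WT; -0.95, adjusted p = 0.000721 in KO), and so did Tgfbr2, a TGF-β receptor (-0.36, adjusted p = 0.0154 and -0.49, adjusted p = 0.000171). Il6st, the shared receptor of the IL-6 family, was lower in WT mLN (-0.86, adjusted p = 0.0249). In WT, leaving out 1 sample lost the call of Il6st in 4 of 7 fits (adjusted p up to 0.0758), of Il12rb1 in 3 (up to 0.0725) and of Tgfbr2 in 1 (up to 0.0560). Both subunits of the IL-23 receptor, Il23r and Il12rb1, and the kinase Tyk2 were thus lower in KO mLN than in KO spleen. The list medians were -0.093 in WT and -0.093 in KO, beside 0.0 and 0.007 over all genes.

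Of 12 further transcription factor genes of the Th17 network, 0 were called between genotypes in spleen and 1 in mLN. That gene was Junb, a partner of BATF, lower in KO at 314.2 ± 31.2 against 575.1 ± 122 CPM (n = 4 and 3; -0.87, SE 0.14, adjusted p = 0.0326), a call lost in 4 of 7 fits that left out 1 sample (adjusted p up to 0.106). Between organs none was called in WT, where Junb (-0.62, adjusted p = 0.0527) and Fosl2 (-0.81, adjusted p = 0.0620) were near the threshold and the list median was -0.287. In KO, 6 were lower in mLN, beside 13.9% of all genes, with a list median of -0.446, and none had an interaction of genotype and organ that passed (no gene did). They included Junb (-1.04, adjusted p = 5.98e-06), Maf (-0.65, adjusted p = 0.000430), Fosl2 (-1.39, adjusted p = 0.00206) and Nfkbiz (-0.44, adjusted p = 0.00479). The partner gene Junb and Batf therefore had opposite signs in KO mLN against KO spleen. Among 6 targets and partners of AHR, 3 passed the filter and only Arnt, its dimer partner, was called. It was lower in WT mLN than in WT spleen (-0.28, adjusted p = 0.0291), a call lost in 5 of 7 fits without 1 sample (adjusted p up to 0.0768). The AHR targets Cyp1a1 and Cyp1b1 averaged at most 0.430 CPM in any group. Ahrr averaged at most 0.126 CPM, with no read in WT mLN. Nqo1 and Tiparp, on the same list, had group means of 1.20 to 2.02 CPM and 47.75 to 59.28 CPM.

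Of 8 targets and brakes of STAT3 signalling, Pim1, a kinase gene induced by STAT3, was lower in KO than in WT spleen (-0.67, SE 0.12, adjusted p = 0.0378), a call lost in 7 of 8 fits without 1 sample (adjusted p up to 0.107). Its estimate for KO over WT in mLN was -0.875 (SE 0.175, adjusted p = 0.0575), which was not called. In KO mLN against KO spleen, Socs1 was higher (0.60, adjusted p = 0.000169), and Pias3 (-0.71, adjusted p = 0.00128) and Pim1 (-0.52, adjusted p = 0.0208; lost in 3 of 8 fits without 1 sample) were lower. Among 8 other effector cytokine and chemokine genes, 0 were called between genotypes in either organ and 1 between organs, Ifng, the Th1 cytokine, lower in KO mLN (-0.78, adjusted p = 0.0220), a call lost in 4 of 8 fits without 1 sample (adjusted p up to 0.0702). Il9 had no read in any sample, and Ccl20, the ligand of CCR6, had none in KO mLN.

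Of 8 genes that restrain Th17 differentiation, Eomes, a T-box factor gene, was higher in KO in spleen (90.3 ± 10.3 against 47.4 ± 14.2 CPM; 0.93, SE 0.18, adjusted p = 0.0444) and in mLN (88.9 ± 22.5 against 40.6 ± 8.61 CPM; 1.13, SE 0.21, adjusted p = 0.0422). Each of these calls was kept in only 1 fit that left out a sample (adjusted p up to 0.118 in spleen and 0.151 in mLN). Foxp3, the factor of regulatory T cells, was higher in WT mLN than in WT spleen (1.34, SE 0.36, adjusted p = 0.0300), a call lost in 5 of 7 fits without 1 sample (0.87 to 1.66, adjusted p up to 0.118). Tbx21 (-0.82, adjusted p = 0.000493) and Stat5b (-0.26, adjusted p = 0.0127) were lower in KO mLN than in KO spleen. In WT mLN against WT spleen they stood at -0.75 (adjusted p = 0.154) and -0.24 (adjusted p = 0.174), and neither was called.

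Genes of other cells moved with the organs as well. The sum of the 4 neutrophil genes S100a8, S100a9, Csf3r and Ly6g ranged from 87.6 to 430.7 CPM in WT spleen, from 77.2 to 280.4 in KO spleen, from 45.4 to 62.1 in WT mLN and from 16.4 to 38.4 in KO mLN. Of these genes 3 were tested and 2, S100a8 and S100a9, were lower in mLN in each genotype. Among all genes, 20.5% were called in either direction in WT, 9.7% higher and the rest lower, and 13.9% were called lower in KO. The 8 myeloid genes ranged from 129.0 to 378.6 CPM in spleen and from 56.5 to 232.7 in mLN. Among 7 tested, 4 were lower and 1 higher in KO mLN than in KO spleen, beside 13.9% and 11.4% of all genes. The 8 NK and innate lymphoid genes, the class of host cell that can also express Il22 and Il23r, summed to between 352.3 and 631.4 CPM in spleen and between 483.7 and 753.9 in mLN. Of these, Gzma was higher in mLN in both genotypes, and Kit was lower in WT mLN, a call lost in 6 of 7 fits without 1 sample (adjusted p up to 0.109). Eomes, which NK cells also express and which is on this list too, was the 1 gene of the 8 called between genotypes, higher in KO in both organs. The sum of the 8 genes had a median of 370.7 CPM in WT spleen, 474.6 in KO spleen, 529.8 in WT mLN and 669.2 in KO mLN. Cd7 had the highest mean of the 8 in each group, at 294.7, 318.0, 353.7 and 465.4 CPM in the same order. Ncr1, a receptor of NK and innate lymphoid cells, was at most 8.38 CPM in any sample, Klrb1c 11.9, Kit 16.9, Tyrobp 20.6 and Klrk1 48.6. For KO over WT, 6 of the 8 genes had a positive log2 fold change in spleen and 4 of 8 in mLN. Klrb1c had lower means in KO than in WT, at 3.36 against 6.82 CPM in spleen and 2.93 against 9.47 in mLN. The part of these cells in the differences of Eomes between genotypes and of Il22, Il23r and Batf between organs was not tested, and in sorted bulk RNA fewer cells of a type and less RNA per cell cannot be told apart.

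WT replicate 4 had the highest Il17a, Il17f, Il22, Ccr6 and Ahr of all samples of its organ, in spleen and in mLN alike, and the lowest Stat3 and Batf. Its Il17f was 5.31 times the next spleen sample and 2.31 times the next mLN sample, and its Il17a 2.69 and 1.17 times. In mLN it also had the highest Il23r (7.63 CPM, next 5.68). Of the 9 members, 7 were thus at the same extreme in both organs in these libraries. The share of all genes at the same extreme in both was not computed, so this count is not a trait of the members. The 2 WT samples numbered 4 also deviated together over 15438 genes (r = 0.291). Beside this, the neutrophil sum was highest of all samples in WT spleen replicate 4 (430.7 CPM), and the sum of 4 haemoglobin genes was 817.6 CPM in spleen and 767.7 in mLN, against at most 100.2 in any KO sample. The highest haemoglobin sum, 1773 CPM, was in another WT spleen sample. Their part in these values was not tested.

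**Figure D5:**
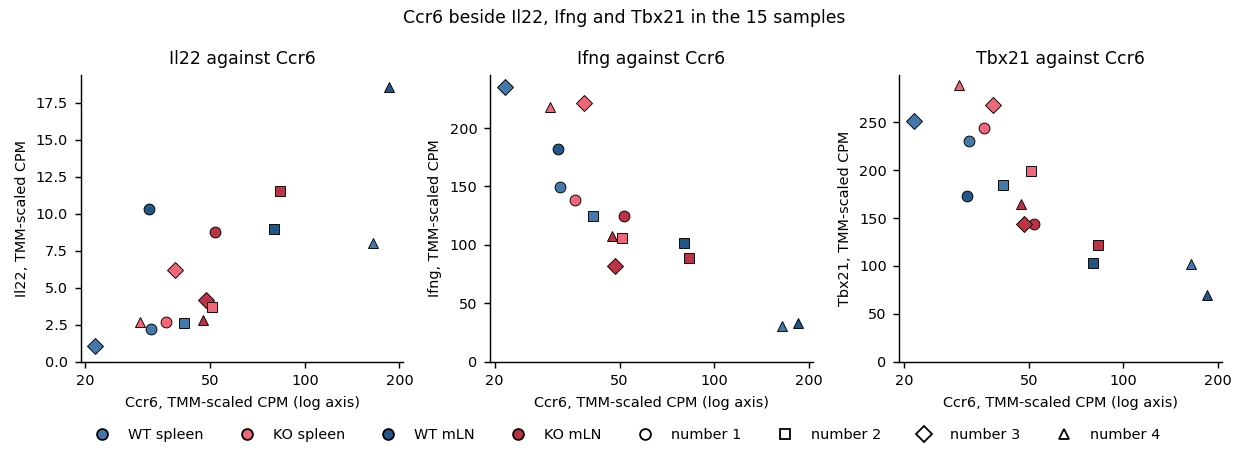
Ccr6 (log axis) against Il22, Ifng and Tbx21, all in TMM-scaled CPM, with 1 point per sample coloured by group and shaped by replicate number. The triangles of WT spleen and WT mLN replicate 4, at 164.5 and 184.9 CPM of Ccr6, lie at the far right with Ifng at 30.7 and 32.9 CPM and Tbx21 at 102.2 and 69.4 CPM, the lowest values of their organs.

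Relations between the members were computed over the samples of each organ, with Pearson's r on log2 CPM and Spearman's rho, as 72 relations (36 pairs in each of 2 organs) with permutation p-values adjusted together. Stat3 and Batf varied together in spleen (r = 0.961, exact permutation p = 0.000422, adjusted p = 0.0304; rho = 0.905, adjusted p = 0.164; n = 8), and r was 0.935 without the 2 samples farthest from the median of Stat3. In mLN the same pair had r = 0.779 (permutation adjusted p = 0.144, n = 7). Il17f and Ahr held nearly the same order in spleen (rho = 0.976, exact permutation adjusted p = 0.0286; r = 0.814, adjusted p = 0.0902; n = 8), and r was 0.859 without the 2 samples farthest from the median of Il17f. However, 7 of the 8 Il17f values rest on 3 reads or fewer. Most of these samples tied at 2 or at 3 reads, so their order in Il17f came from the scaling to depth. This rho therefore cannot show whether the 2 genes vary together. In mLN no relation passed the adjustment, and 6 of 36 Pearson relations had an unadjusted permutation p under 0.05, beside 14 of 36 in spleen. For Il17f and Ccr6 in spleen, r was 0.956 over all 8 samples (permutation adjusted p = 0.0902; rho = 0.714, adjusted p = 0.238), 0.311 without the 2 samples farthest from the median of Il17f and 0.792 without WT replicate 4 alone. For Il22 and Ccr6 r was 0.813 (permutation adjusted p = 0.115; rho = 0.714, adjusted p = 0.238), 0.394 without the 2 samples farthest from the median of Il22 and 0.748 without WT replicate 4 alone.

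The genes with the most similar pattern over the 15 samples, by Pearson's r of log2 CPM, differed for each member. They are given as a description, since the samples share organ and genotype. For Rora they were Gm15511 (0.932), which overlaps Rora on the other strand, Slc16a3 (0.902) and Sirt2 (0.867). For Il17f they were Capg (0.928), Gm48236 (0.927), which overlaps Ahr on the other strand, and Ascc1 (0.915), and for Il17a Ndufaf7 (0.882), Tmem64 (0.877) and Cd55 (0.874). Il22 was most like Ltb4r1 (0.915), a leukotriene B4 receptor gene, Gm13068 (0.909) and 4930473A02Rik (0.901). Ccr6 was most like Rnls (0.894), Stmn2 (0.893) and Iltifb (0.874), the copy of Il22. Il23r was closest to Cotl1 (0.868), Gm37368 (0.861) and Gm10644 (0.859), and Ahr to Emp1 (0.857), Gm31887 (0.853) and Cpd (0.849). Stat3 was closest to Rgs3 (0.917), Acap1 (0.917) and Egr2 (0.916), and Batf to Hsp90ab1 (0.923), 1700123O20Rik (0.919) and Cox7a2 (0.919). No member was among the 3 closest genes of another member.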

How the data were processed

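RNA of sorted CD4+ T cells was sequenced as single-end reads of 75 bases. The authors aligned them with STAR 2.6.1a to GRCm38 with GENCODE M23 and deposited raw read counts per gene, not normalized. The strand setting is not given in the sources used here. Reads that lay on no gene row (67.4% to 70.3% of all reads) stayed out of library sizes and tests. GENCODE M21, on the same build, gave symbols, coordinates and exon lengths, and 55240 of 55421 genes matched it. Counts were filtered on low values, scaled by TMM and tested with edgeR 4.0.16 in R 4.3.3 (quasi-likelihood test, Benjamini-Hochberg adjustment over all genes tested), each comparison on its own groups and the interaction on all 15 samples. DESeq2 1.42.0 was an alternative, as were other scaling, no filter, 1 fit over all samples, a replicate block and leaving out each sample. A prior count of 2 was used for log2 CPM. The procedure was tested on simulated data. The detection floor was set at 3 reads; without molecular identifiers it covers counting error only.

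The members and lists were chosen with earlier results of these data known. All 9 members were named, with Prkaa1, the 3 genes most like each member and, per list and comparison, at most 4 called genes of smallest p. Lists of other cell types are given by their sums and counts. Whether replicate numbers pair samples was checked by the correlation of deviations from group means over 15438 genes between the organs. For WT, r was 0.258, 0.243 and 0.291 for numbers 1, 2 and 4, so blocked values stand beside the WT organ comparison. For KO, r was 0.041, 0.17, 0.026 and 0.259, and between genotypes it ranged from -0.21 to 0.146, so those numbers were not taken to pair samples.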

Additional observations from a re-analysis of the deposited data

Results flagged for a closer look

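In 2 of 27 groups of 4 samples examined for a single value far from the rest, Ccr6 met Dixon's criterion, which chance meets in about 1 of 20 groups. In WT spleen, replicate 4 (164.5 CPM) lay so far above the next sample (41.2 CPM) that the gap took up 0.862 of the whole range. In KO mLN, replicate 2 (83.1 CPM) stood above the next sample (51.8 CPM) by 0.872 of a much narrower range. Groups of 3, such as WT mLN, were not examined in this way.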

How the results depend on the processing

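Between genotypes, no member was called under any alternative that kept the filter on low counts. Without the filter, 1 member was called in spleen (Ccr6) and 3 in mLN (Rora, Ccr6 and Ahr). The gene counts moved widely. In spleen, 185 called genes became 823 with DESeq2, 1422 without the filter, 85 in 1 fit over all samples, 17 with the replicate block, 64 with an absolute log2 fold change above 1, and 12 to 324 when 1 sample was left out. In mLN, 92 became 588, 913, 500, 1, 47 and 4 to 117 in the same order. For mLN against spleen in WT, 1 called member became 3 with DESeq2, 5 without the filter, 4 with the replicate block, 2 without WT replicate 4 of both organs, 0 with Il22 and Iltifb reads added, and 0 to 1 when 1 sample was left out. The called genes numbered 723 with the fold limit and 1816 to 2780 without 1 sample, beside 2980. In KO, 2 called members became 4 without the filter, 1 in 1 fit over all samples, 0 with the fold limit and 0 to 2 without 1 sample, and the called genes 763 with the fold limit and 2631 to 3669 without 1 sample, beside 3602. Ccr6 was also called in KO with DESeq2 and with the replicate block, with values given below. The interaction called 4 genes with DESeq2, 112 without the filter and 3 with the replicate block, none of them a member in any of these fits. The cause of these shifts was not tested.

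Changes of sign concerned estimates that were not called. In spleen, KO over WT, Il22 stood at -0.18 with Iltifb reads added and at -0.19 to 0.98 without 1 sample, Il23r at -0.008 with the replicate block and -0.11 to 0.24 without 1 sample, and Ccr6 at -1.04 to 0.29. The difference in mean CPM (KO minus WT) ranged from -0.648 to 0.0641 for Il17a and from -0.550 to 0.00229 for Il17f without 1 spleen sample, positive only without WT replicate 4. In mLN without 1 sample, Il23r ranged from -0.16 to 0.91 and Ccr6 from -1.20 to 0.038. For mLN over spleen in WT, Rora stood at -0.044 without WT replicate 4 of both organs and at -0.064 to 0.26 without 1 sample, and Ccr6 at -0.23 to 1.64. In KO, Ahr stood at -0.011 without the filter and at -0.12 to 0.12 without 1 sample, and Ccr6 was called with DESeq2 (0.55, adjusted p = 0.0273) and with the replicate block (0.54, adjusted p = 0.00384). For the interaction, Il17a stood at -0.32 and Il17f at -0.23 without WT replicate 4 of both organs, and the replicate block gave 0.19 for Ccr6, 0.011 for Ahr and -0.02 for Batf. Without 1 sample the interaction ranged from -0.97 to 0.83 for Il17a, -1.21 to 1.21 for Il17f, -0.21 to 0.87 for Il23r, -1.08 to 0.78 for Ccr6, -0.38 to 0.012 for Ahr and -0.023 to 0.16 for Batf. In KO, 3 of 4 numbers correlated best with their own number in the other organ.

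Depth limits Il17a and Il17f most: 5 of 15 samples for Il17a and 8 of 15 for Il17f had 3 reads or fewer. Scaling by DESeq2's size factors left all member results on the same side of the threshold. The alternatives without WT replicate 4 of both organs and with Il22 and Iltifb reads added were chosen after seeing the data.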
